A study of Mus musculus with 24 samples.

Results

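The aryl hydrocarbon receptor, its dimer partner and 6 genes that the receptor is known to induce were followed in mouse liver: Ahr, Arnt, Ahrr, Tiparp, Cyp1a1, Cyp1a2, Cyp1b1 and Aldh3a1. A gene was taken when a probe set carried its symbol and no other in the platform annotation, and each of the 8 had exactly 1 such probe set. They are 8 of the 19938 genes tested. Liver RNA of 24 male C57Bl/6 mice, labelled as 1 mouse per array, was hybridised to Affymetrix MoGene 1.0 ST arrays, on which several short probes spread along a gene form its probe set. The 4 groups of 6 were germ-free mice fed fish oil, conventional mice fed fish oil, germ-free mice fed lard and conventional mice fed lard. Germ-free mice are raised without microbes, and conventional mice carry them. All mice were wild type, received a diet with 45% of its energy as fat (menhaden fish oil or lard) for 11 weeks and went without food for 4 hours before sampling. The labels give the age as 11 weeks, the series' design text gives that age for the start of feeding, and the age at sampling is not stated directly. The sources used here give no stock, vendor, litter or cage.

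The aryl hydrocarbon receptor is a transcription factor that waits in the cytosol bound to the chaperone HSP90. A ligand, such as a dioxin, a plant indole, a tryptophan metabolite of the host or an indole made by gut bacteria, sends it to the nucleus, where it pairs with ARNT and binds DNA at the core letters GCGTG. In liver the response is known best for the cytochrome P450 genes Cyp1a1, Cyp1a2 and Cyp1b1, and 2 other induced genes, Ahrr and Tiparp, encode proteins that dampen the receptor.

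Before the results, 4 features of the arrays bear on them. In the fish oil germ-free group, the arrays of mouse 3 and mouse 4 differed by an SD of 0.123 on the log2 scale over the 300 most variable genes, against 0.349 for the next closest of the 60 pairs within groups, so they were averaged and counted as 1 sample (n = 5 in that group, 23 samples in all). Nnt, a mitochondrial gene that is partly deleted in the C57BL/6J substrain, had signals of 9.72 to 9.92 in fish oil germ-free mice against 10.8 to 11.33 in fish oil conventional mice, and of 10 to 10.23 in lard germ-free mice against 11.27 to 11.52 in lard conventional mice. Mouse stock and bacterial status therefore cannot be told apart in any comparison of germ-free with conventional mice. The clock index, the log2 signal of Dbp minus that of Arntl (genes of the daily clock with opposite phase), had a median of 3.24 in fish oil germ-free, -0.75 in fish oil conventional, 4.26 in lard germ-free and 2.44 in lard conventional mice. The 5 hepatocyte markers (Alb, Apoa1, Ttr, Hnf4a and Cps1) averaged between 13.54 and 13.71 in every sample, and none passed the test in any comparison. By diet in germ-free mice 2 of them were higher at an unadjusted p under 0.05 (limma). Their mean lies close to the array maxima of 14.29 to 14.5.

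All signals are log2 values, so a difference of 1 is a doubling, and levels are compared within a gene only, since probe sets differ in response. Relative to all genes, the mean signal of Cyp1a2 stood at the 98.4th percentile, Arnt at the 89.7th, Ahr at the 87.6th and Tiparp at the 58th. Cyp1b1 stood at the 32.8th percentile, Aldh3a1 at the 23.8th, Cyp1a1 at the 22.2nd and Ahrr at the 17.9th. The files give no detection calls, so it is not known whether those 4 dim probe sets read transcript above background.

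**Figure D1:**
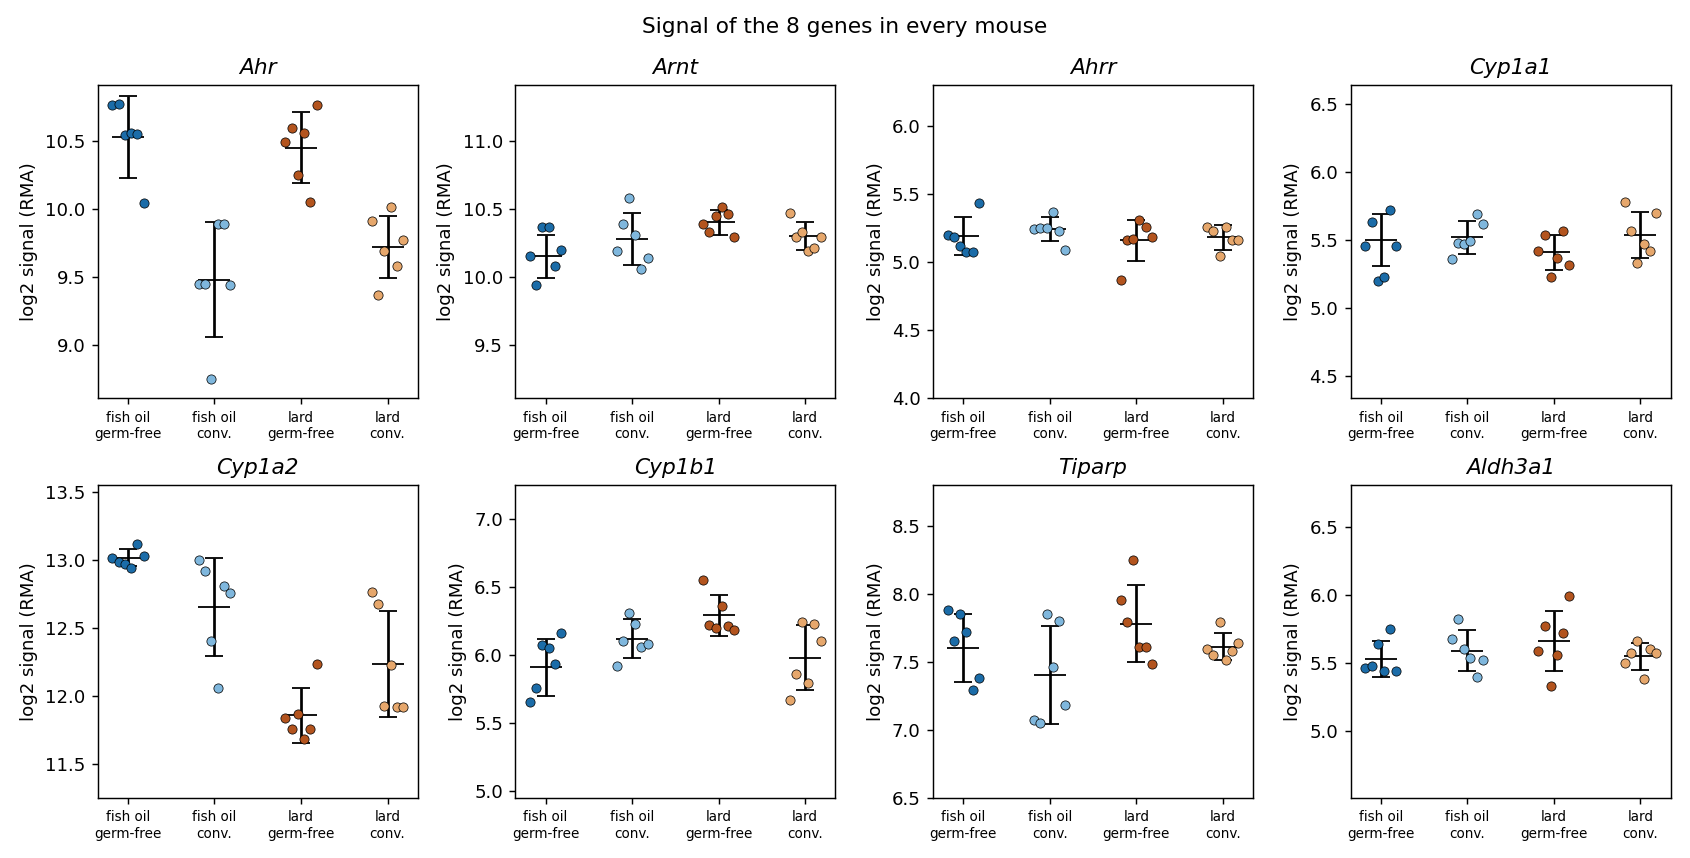
Log2 signal (RMA) of the 8 genes in each of the 24 mice (points), with the group mean and SD (lines and bars; fish oil germ-free n = 5 after averaging mice 3 and 4), each panel spanning the same number of log2 units. Ahr lies higher in both germ-free groups, and Cyp1a2 separates fish oil germ-free mice (12.94 to 13.12) from lard germ-free mice (11.69 to 12.24).

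Ahr, the receptor itself, was higher in germ-free than in conventional livers on both diets. On fish oil its signal ran from 10.04 through a median of 10.55 to 10.77 in germ-free mice, against 8.75, 9.45 and 9.89 (lowest, median, highest) in conventional mice. On lard it ran from 10.05 through 10.53 to 10.76 in germ-free mice, against 9.37, 9.73 and 10.01 in conventional mice. Neither pair of groups overlapped: every germ-free mouse lay above every conventional mouse on the same diet. The means were 10.53 ± 0.30 (SD, n = 5) in fish oil germ-free and 9.48 ± 0.42 (n = 6) in fish oil conventional mice, a log2 difference of 1.05 ± 0.17 (SE) or 2.08-fold (limma with Benjamini-Hochberg adjustment over all 19938 genes, adjusted p = 0.000585). They were 10.45 ± 0.26 in lard germ-free and 9.72 ± 0.23 in lard conventional mice (SD, n = 6 each), a difference of 0.73 ± 0.16 or 1.66-fold (limma adjusted p = 0.0175). Ahr was 1 of 8 genes to pass the test in each of these 2 comparisons, where 6.91% (fish oil) and 1.82% (lard) of all genes passed. Groups that did not overlap were found for 1 of 8 genes in each, against 3.8% of all genes on fish oil and 2.08% on lard. With the diets given equal weight, Ahr was 0.89 ± 0.12 higher in germ-free mice (1.86-fold, limma adjusted p = 3.63e-05), the 40th smallest p of 19938, and it was again 1 of 8 called, where 7.84% of all genes were. The call on lard ended without lard conventional mouse 2 (difference 0.66, adjusted p = 0.0647), and over all 37 other settings the adjusted p on lard ran from 0.000694 to 0.0647. In whole liver, more cells of a type that holds a transcript and more transcript per cell cannot be told apart.

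No difference in Ahr by diet passed the test. Fish oil minus lard was 0.08 ± 0.17 in germ-free mice (95% interval -0.27 to 0.43) and -0.24 ± 0.16 in conventional mice (95% interval -0.58 to 0.09). The difference between the 2 germ-free effects, 0.32 ± 0.24, did not pass (limma adjusted p = 0.648). Over the 23 samples the genes whose signal followed Ahr most closely were Rapgef1 (Pearson's r = 0.861), Dop1b (0.859) and Tmem267 (0.854). For deviations from the group means r was lower, at 0.734 for Rapgef1, 0.504 for Dop1b and 0.484 for Tmem267.

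Markers of cells other than hepatocytes differed in the same comparisons. All 7 Kupffer cell markers (the resident macrophages of liver, marked by Clec4f, Vsig4, Timd4, Cd5l, Adgre1, Csf1r and C1qa) were lower in germ-free mice over both diets. Their mean ran from 8.88 to 9.32 in fish oil germ-free against 9.26 to 10.24 in fish oil conventional mice, and from 8.48 to 9.43 in lard germ-free against 9.47 to 9.94 in lard conventional mice. On fish oil 4 of 5 endothelial markers and 0 of 7 stellate cell markers were called lower in germ-free mice. At an unadjusted p under 0.05 (limma) 3 stellate markers were lower. On lard 0 endothelial markers passed (1 lower at an unadjusted p under 0.05), and 3 of 7 stellate markers, all collagen genes (Col1a1, Col1a2 and Col3a1), were called higher. Of the other lists, 1 of 4 cholangiocyte markers was called higher and 1 of 5 lymphocyte markers lower on lard, and none passed on fish oil. Of all genes 6.91% were called on fish oil, 1.82% on lard and 7.84% over both diets. The part of these cells in the Ahr difference was not tested. With the clock index as a covariate Ahr remained higher in germ-free mice, by 0.98 on fish oil (adjusted p = 0.00252) and 0.68 on lard (adjusted p = 0.0442).

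**Figure D2:**
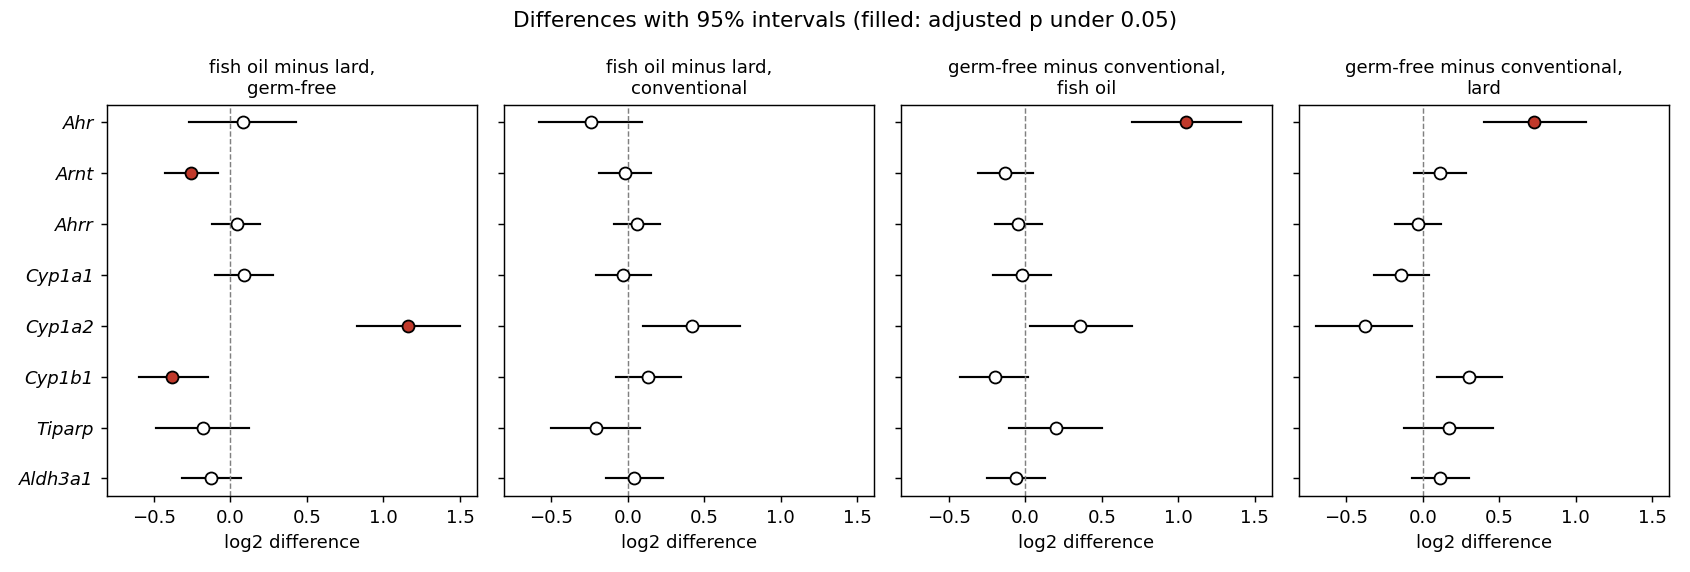
Differences in log2 signal of the 8 genes in 4 comparisons, with 95% intervals (lines) and filled points where limma's adjusted p is under 0.05. Ahr is filled in both germ-free against conventional panels, and Arnt, Cyp1a2 and Cyp1b1 in fish oil against lard among germ-free mice. The comparisons share groups of mice with one another.

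Arnt, the partner without which the receptor cannot bind DNA, was slightly lower on fish oil than on lard in germ-free mice. Its signal ran from 9.94 through 10.15 to 10.37 in fish oil germ-free mice, against 10.29, 10.42 and 10.51 in lard germ-free mice. The groups overlapped, with 4 of 6 fish oil mice below every lard mouse. The difference of -0.26 ± 0.09 (1.19-fold lower on fish oil) passed narrowly (limma adjusted p = 0.0481), and it missed the threshold in 24 of 37 other settings (adjusted p 0.00727 to 0.195). In conventional mice Arnt averaged 10.28 ± 0.19 on fish oil and 10.30 ± 0.10 on lard (SD, n = 6 each), with a 95% interval of the difference of -0.19 to 0.15. Germ-free minus conventional was -0.13 ± 0.09 on fish oil and 0.11 ± 0.08 on lard, neither past the threshold. The genes nearest to Arnt over the 23 samples were Copb1 (r = 0.799), Rab10 (0.773) and Cndp2 (0.77).

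Of 9 genes listed as other partners of the receptor, 7 were measured and 1 changed. Hsp90aa1, a chaperone of the HSP90 pair that holds the receptor in the cytosol, was 0.71 ± 0.12 higher on fish oil than on lard in germ-free mice (limma adjusted p = 0.000333). Hsp90aa1 was also 0.61 ± 0.12 higher in germ-free than conventional mice on fish oil (limma adjusted p = 0.00303) and 0.35 ± 0.08 higher over both diets. These comparisons share the fish oil germ-free mice, and 13.2%, 6.91% and 7.84% of all genes were called in them. The list's median difference was 0.06 for diet in germ-free mice, beside 0 for all genes.

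Cyp1a2, Cyp1b1 and Cyp1a1 are the classical cytochrome P450 targets, and their promoters are shown as a description. Whether these sequences bear on the differences in signal was not tested. Sequences are those of RefSeq for GRCm38.p6, 250 bases before to 50 after an annotated start, in the direction of the gene, matched by symbol for 6 of the 8 genes. Capitals mark the core GCGTG or, where it lies on the other strand, CACGC; the hypoxia-inducible factors, which also pair with ARNT, bind a core that can use the same letters. Cyp1a1 (chr9:57697363-57697662, plus strand) has 1 core, 54 bases before the start, and Cyp1b1 (chr17:79715012-79715311, minus strand) has 1 on the other strand, 76 bases before the start. The Cyp1a1 gene is annotated from 57687928 to 57703824, so its window surrounds a start inside the gene, not the gene's first base. Cyp1a2 (chr9:57683606-57683905, minus strand), the neighbour of Cyp1a1 on chromosome 9, has 0 in this window.
Cyp1a1: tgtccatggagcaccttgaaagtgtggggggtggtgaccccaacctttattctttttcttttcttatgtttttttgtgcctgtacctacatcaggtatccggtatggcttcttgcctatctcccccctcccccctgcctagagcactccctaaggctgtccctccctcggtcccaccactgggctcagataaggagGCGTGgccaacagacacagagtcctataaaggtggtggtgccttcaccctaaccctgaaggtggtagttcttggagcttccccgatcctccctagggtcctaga
Cyp1a2: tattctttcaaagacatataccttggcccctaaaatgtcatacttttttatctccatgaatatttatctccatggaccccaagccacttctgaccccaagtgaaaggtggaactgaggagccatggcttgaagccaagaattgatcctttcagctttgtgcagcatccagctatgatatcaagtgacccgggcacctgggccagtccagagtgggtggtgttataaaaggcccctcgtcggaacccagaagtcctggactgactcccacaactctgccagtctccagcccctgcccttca
Cyp1b1: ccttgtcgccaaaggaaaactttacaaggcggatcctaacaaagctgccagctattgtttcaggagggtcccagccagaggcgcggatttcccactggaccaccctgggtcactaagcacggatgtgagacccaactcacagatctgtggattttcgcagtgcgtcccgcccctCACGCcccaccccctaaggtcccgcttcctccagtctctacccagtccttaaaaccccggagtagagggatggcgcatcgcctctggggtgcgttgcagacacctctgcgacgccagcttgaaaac
A core on either strand was found in 32.4% of 32851 mouse promoters of this length, and in 5 of the 6 matched here. Ahrr had 3 cores, and 3.91% of all promoters hold 3 or more. No match says only that these letters are not in this window, and a match is a description of letters, not of binding.

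Cyp1a2, which in liver oxidises caffeine and aromatic amines, had the largest difference by diet of the 8 genes, among mice without microbes. It ran from 12.94 through a median of 13.02 to 13.12 in fish oil germ-free mice, against 11.69, 11.80 and 12.24 in lard germ-free mice. Every fish oil mouse lay above every lard mouse. The means were 13.02 ± 0.06 (SD, n = 5) on fish oil and 11.86 ± 0.20 (n = 6) on lard, a log2 difference of 1.16 ± 0.16 or 2.24-fold (limma adjusted p = 5.41e-05). This call held in 37 of 37 other settings (1.02 to 1.24), including the clock index as a covariate (1.02, adjusted p = 0.000609). Array maxima were 14.29 to 14.5, so these signals lie in the upper part of the range.

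In conventional mice the fish oil and lard groups overlapped for Cyp1a2. It ran from 12.06 through 12.78 to 13 on fish oil, against 11.92, 12.08 and 12.77 on lard. The difference of 0.42 ± 0.15 (95% interval 0.10 to 0.73) did not pass over all genes (limma adjusted p = 0.174), and it did without fish oil conventional mouse 4 (0.54, adjusted p = 0.0354, with a range of 0.0354 to 0.74 over the other settings). The test of whether the diet effect differed between germ-free and conventional mice gave 0.75 ± 0.22 and did not pass (limma adjusted p = 0.124). Germ-free minus conventional had opposite signs on the diets, 0.36 ± 0.16 on fish oil (adjusted p = 0.199) and -0.38 ± 0.15 on lard (adjusted p = 0.271), and neither passed.

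The genes nearest to Cyp1a2 over the 23 samples were Phyh (r = 0.935), Adh6-ps1 (0.929) and Lifr (0.929). For deviations from the group means r was 0.843 for Phyh, 0.838 for Adh6-ps1 and 0.764 for Lifr. Phyh oxidises branched fatty acids in peroxisomes, and Lifr is a cytokine receptor. The samples share their normalization run, and a correlation across them is given as a description.

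**Figure D3:**
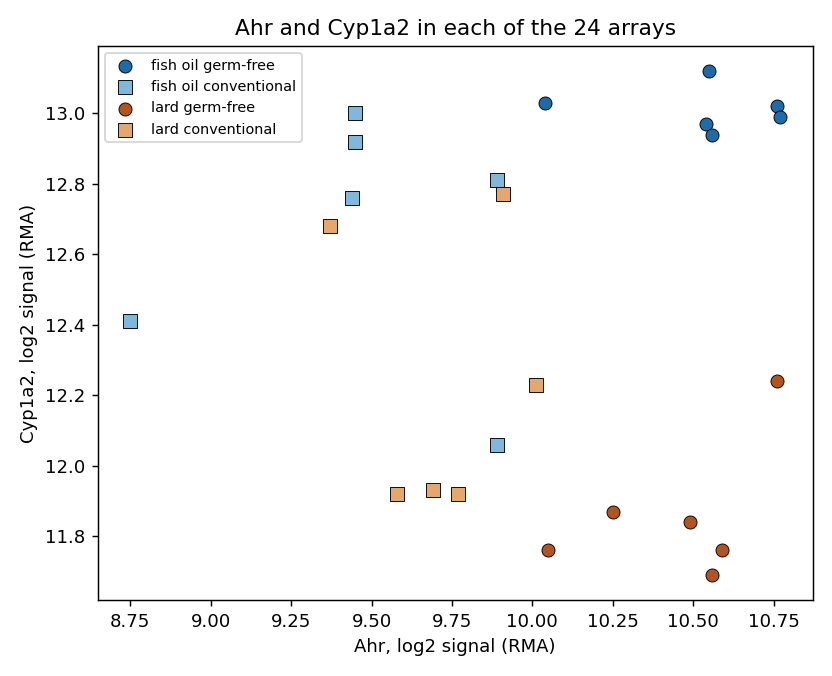
Log2 signal of Ahr (x axis) against Cyp1a2 (y axis) in each of the 24 arrays, by group. Both germ-free groups lie to the right, at 10.04 or more for Ahr, while Cyp1a2 is 12.94 or more in fish oil germ-free mice and 12.24 or less in lard germ-free mice.

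Cyp1b1, which metabolises steroids and polycyclic hydrocarbons and is known mainly from cells outside the hepatocyte, moved the other way. It ran from 5.65 through 5.93 to 6.16 in fish oil germ-free mice, against 6.18, 6.21 and 6.55 in lard germ-free mice. The groups did not overlap, though the nearest mice of each stood at 6.16 and 6.18. The difference was -0.38 ± 0.11 (1.30-fold lower on fish oil, limma adjusted p = 0.0217), and it lost the call without fish oil germ-free mouse 1 (-0.31, adjusted p = 0.0792) or 2 (-0.34, 0.0606), without lard germ-free mouse 1 (-0.32, 0.0616) and with the clock index as a covariate (0.0632; range over the other settings 0.00379 to 0.0792). Of 7 stellate cell markers 6 were called lower on fish oil among germ-free mice. Their mean ran from 8.85 to 8.94 in fish oil and from 9.38 to 9.56 in lard mice. Of the other lists, 3 of 4 cholangiocyte markers and 1 of 5 endothelial markers were called lower, and 1 of 7 Kupffer cell markers higher. No neutrophil or lymphocyte marker passed, and 13.2% of all genes were called in either direction. The part of these cells in the Cyp1b1 and Cyp1a2 differences was not tested. In conventional mice the difference was 0.13 ± 0.10 (95% interval -0.08 to 0.35), and the difference between the diet effects, -0.51 ± 0.15, did not pass (limma adjusted p = 0.117).

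Cyp1a1, usually the most inducible of the family, showed no difference that passed. Its signal ran from 5.2 through a median of 5.46 to 5.72 in fish oil germ-free mice, against 5.36, 5.48 and 5.69 in fish oil conventional mice. It ran from 5.23 through 5.39 to 5.57 in lard germ-free mice, against 5.33, 5.52 and 5.78 in lard conventional mice. All groups overlapped. The intervals bound the diet difference between -0.10 and 0.28 in germ-free mice and between -0.21 and 0.15 in conventional mice, and the germ-free difference between -0.21 and 0.17 on fish oil and between -0.32 and 0.04 on lard. Cyp1a1 is 1 of the 4 dim probe sets, and these bounds are on its array scale.

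Among germ-free mice, then, 3 of 8 genes passed for diet (Cyp1a2 higher, Arnt and Cyp1b1 lower) where 13.2% of all genes did, and 2 of 8 had groups that did not overlap where 12% of all genes did. In conventional mice limma called 0 of 8 for diet (1 at an unadjusted p under 0.05, Cyp1a2), where 0.808% of all genes were called, and 0 of 8 had groups that did not overlap, where 0.998% did. For the difference between the diet effects limma called 0 of 8 (2 at an unadjusted p under 0.05, Cyp1a2 higher and Cyp1b1 lower), where 0.607% were. The median difference of the 8 genes for diet was -0.05 in germ-free and 0.01 in conventional mice, beside 0 and 0.01 for all genes.

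No difference in the feedback genes or in Aldh3a1 passed the test. Tiparp, an ADP-ribosyltransferase that inactivates the receptor, ran from 7.29 through 7.65 to 7.88 in fish oil germ-free mice, against 7.05, 7.32 and 7.85 in fish oil conventional mice. It ran from 7.48 through 7.70 to 8.25 in lard germ-free mice, against 7.51, 7.59 and 7.79 in lard conventional mice. All groups overlapped, and its germ-free difference over both diets was 0.19 ± 0.10 (95% interval -0.03 to 0.40, limma adjusted p = 0.329). The genes nearest to Tiparp over the 23 samples were Otud7b (r = 0.785), Snrk (0.77) and Wwc2 (0.767). Ahrr, a repressor that competes with the receptor for ARNT, averaged 5.19 ± 0.14 (SD, n = 5) in fish oil germ-free, 5.24 ± 0.09 in fish oil conventional, 5.16 ± 0.15 in lard germ-free and 5.18 ± 0.09 in lard conventional mice (SD, n = 6 each). Aldh3a1, an aldehyde dehydrogenase that dioxin induces in rodent liver, averaged 5.53 ± 0.13 (SD, n = 5) in fish oil germ-free, 5.59 ± 0.15 in fish oil conventional, 5.66 ± 0.22 in lard germ-free and 5.55 ± 0.10 in lard conventional mice (SD, n = 6 each). All groups overlapped for both genes. The largest absolute difference of the 2 genes in the 4 paired comparisons, -0.13 ± 0.09 for Aldh3a1 by diet in germ-free mice, had a 95% interval of -0.32 to 0.07.

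Of 14 other genes known to be induced through the receptor or to interact with its response, 8 were measured. By diet in germ-free mice 3 fell and 0 rose: Nqo1, a quinone reductase that is also a target of the stress factor NRF2, by 0.92 ± 0.20 (limma adjusted p = 0.00259), Slc46a3, a lysosomal transporter, by 0.75 ± 0.16 (adjusted p = 0.00213), and Cyp2s1, a cytochrome P450, by 0.25 ± 0.08 (adjusted p = 0.033). Slc46a3 lost its call without germ-free mice 5 and 6 of both diets (adjusted p = 0.127; range over the other settings 0.000516 to 0.127), and Cyp2s1 lost it in 11 of 36 (0.0117 to 0.114). Cyp2s1 averaged 6.36 to 6.64 in the 4 groups, below the median gene at 7.01, so it was not tested among genes above the median signal. By diet in germ-free mice 13.2% of all genes were called, 913 higher and 1712 lower. The list's median was -0.19 beside 0 for all genes. In conventional mice 0 passed (limma; 1 higher and 2 lower at an unadjusted p under 0.05), and the list's median was -0.14. Cyp2s1 was the only gene of the list whose diet effect differed between germ-free and conventional mice (-0.49 ± 0.11, limma adjusted p = 0.0412), and this held in 16 of 35 other settings (adjusted p 0.0243 to 0.0966). Nqo1 was 0.46 ± 0.14 higher in germ-free mice over both diets (limma adjusted p = 0.0394), which held in 20 of 36 other settings (0.00534 to 0.223). All genes were called at 0.607% for the difference between the diet effects and at 7.84% over both diets. In the comparison where Cyp1a2 rose, Nqo1, Slc46a3 and Cyp2s1 fell.

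The liver also makes ligands of the receptor from tryptophan, through the kynurenine pathway (13 genes listed, 12 measured). By diet in germ-free mice 3 aminotransferase genes rose, all of which can turn kynurenine into kynurenic acid: Aadat by 0.66 ± 0.14 (limma adjusted p = 0.00223), Kyat1 by 0.49 ± 0.09 (adjusted p = 0.00103) and Kyat3 by 0.40 ± 0.08 (adjusted p = 0.00183). Ido2, a dioxygenase that opens the tryptophan ring, fell by 0.34 ± 0.09 (adjusted p = 0.0162), and lost its call in 4 of 37 other settings (0.00468 to 0.303). Of the 12 genes 3 were thus called higher and 1 lower, where 13.2% of all genes were called in either direction. The list's median was 0.1 beside 0 for all genes. By diet in conventional mice 0 of the 12 passed, where 0.808% of all genes did. At an unadjusted p under 0.05 (limma) 3 were higher and 1 lower. Fish oil minus lard there was 0.47 ± 0.13 for Aadat, 0.25 ± 0.09 for Kyat1, 0 ± 0.08 for Kyat3 and -0.19 ± 0.09 for Ido2. For the difference between the diet effects 0 of the 12 passed, where 0.607% of all genes did. Kyat1 fell by 0.53 ± 0.09 in germ-free against conventional mice on lard (limma adjusted p = 0.00191), and Qprt, which makes nicotinate mononucleotide from quinolinate, fell by 0.36 ± 0.09 on fish oil (limma adjusted p = 0.0134; lost with only the 2 groups compared, 0.0618, in a range of 0.00062 to 0.0618 over the other settings). Over both diets Kyat1 fell by 0.41 ± 0.07 (limma adjusted p = 0.000331) and Qprt by 0.23 ± 0.06 (adjusted p = 0.0214; lost in 1 of 36 other settings, 0.00117 to 0.0599) in germ-free mice. For germ-free against conventional mice 1 of the 12 genes was called on lard, 1 on fish oil and 2 over both diets. In these comparisons 1.82%, 6.91% and 7.84% of all genes were called. Tdo2, the main enzyme of tryptophan breakdown in hepatocytes, passed in none of the comparisons.

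**Figure D4:**
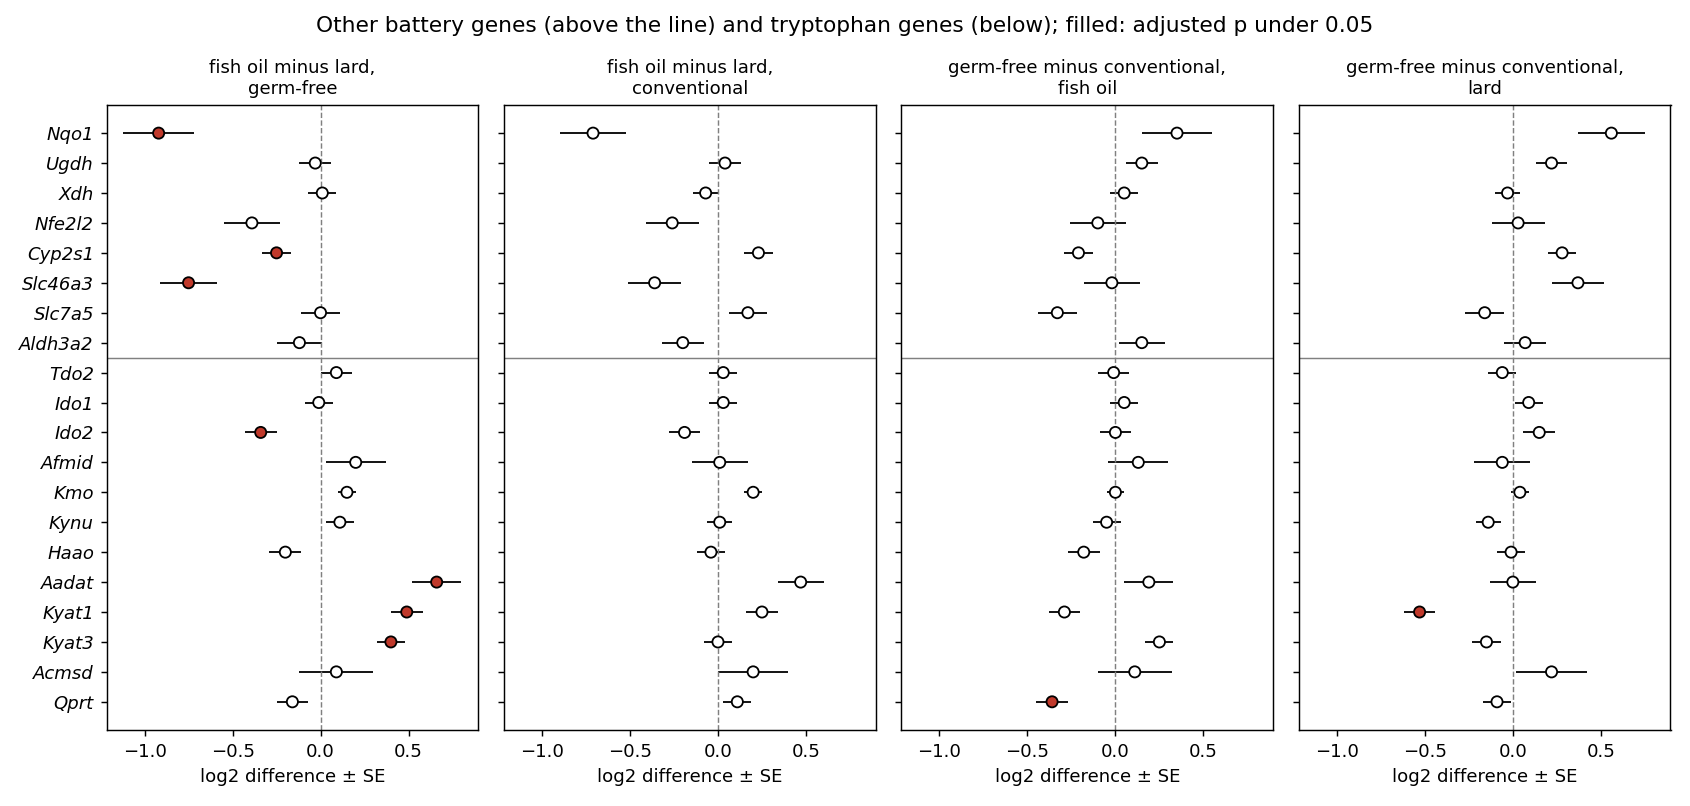
Differences in log2 signal ± SE of 8 other genes induced through the receptor or interacting with its response (above the line) and 12 genes of tryptophan breakdown (below the line) in 4 comparisons, with filled points where limma's adjusted p is under 0.05. Filled points are mostly in fish oil against lard among germ-free mice, with Nqo1, Cyp2s1, Slc46a3 and Ido2 lower and Aadat, Kyat1 and Kyat3 higher.

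Cyp1a2 is known to be expressed mainly in pericentral hepatocytes, those around the central vein. Of 8 pericentral genes 2 fell on fish oil in germ-free mice, the ammonium transporter Rhbg by 1.05 ± 0.20 (limma adjusted p = 0.000858) and glutamine synthetase, Glul, by 0.22 ± 0.06 (adjusted p = 0.0199; lost in 3 of 37 other settings, 0.00352 to 0.0934), against 13.2% of all genes called in either direction. The differences of the 8 were positive for 4, with a median of -0.01 beside 0 for all genes. The glutamate transporter Slc1a2 was 0.45 ± 0.10 higher in germ-free than conventional mice on fish oil (adjusted p = 0.00678). Over both diets Slc1a2 was 0.40 ± 0.07 higher (adjusted p = 0.000582) and Oat, ornithine aminotransferase, 0.22 ± 0.07 higher (adjusted p = 0.0388; held in 24 of 36 other settings, 0.00732 to 0.172) in germ-free mice. Of 3 periportal genes measured, from 6 listed, none passed (limma; 1 at an unadjusted p under 0.05 for germ-free against conventional mice on fish oil, and 1 over both diets).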

How the data were processed

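Liver RNA of 24 mice was measured on MoGene 1.0 ST v1 arrays. Per the file headers, the authors made the deposited log2 signals with RMA (background correction, quantile normalization, median polish) in 1 run of all arrays, with array library r4 and apt engine 1.1.2800.28061; no source used here names a genome build. Quantile normalization hides a change shared by most genes. Both deposited log2 tables agreed within 0.005. Of 35556 probe sets 21789 carried 1 gene symbol, 1621 several and 12146 none; 999 genes had more than 1 probe set and the highest mean was used, with no filter on level, giving 19938 genes.

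limma 3.58.1 in R 4.3.3 (lmFit, eBayes) fitted 4 group means with a pooled spread, and p-values were adjusted by Benjamini-Hochberg within each of 6 contrasts and called under 0.05. The fit used 23 samples. Arrays have no depth in reads, so precision rests on how many mice each group has. The p-values set a difference against the spread between mice, pooled over the 4 groups and drawn by eBayes toward that of other genes. They treat the samples as independent, and cage and litter are not given. The code was tested on simulated data. Alternatives covered scaling, variance models, a replicate block, the clock index and each mouse left out. The members and gene lists were chosen with earlier results of these data known. Named genes were the members, the 3 nearest genes by Pearson's r to each member above the median signal, and the called genes of 4 lists.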

Additional observations from a re-analysis of the deposited data

Results flagged for a closer look

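In 2 of the 32 gene and group combinations 1 mouse lay apart from the rest by Dixon's criterion at 95%, and chance alone gives about 1 in 20. Cyp1a2 was 12.24 in lard germ-free mouse 6, the highest of its group. Ahrr was 4.87 in lard germ-free mouse 1, the lowest of its group. The diet effect on Cyp2s1 differed between germ-free and conventional mice by -0.49 on the log2 scale (limma adjusted p = 0.0412).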

How the results depend on the processing

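Over 37 other settings, 24 of which left out 1 mouse, 48 results for the 8 genes gave 1736 values; none changed sign on a call, 1706 kept their side of the threshold, 29 lost a call and 1 gained one. The number of genes called for diet in germ-free mice was 3, fell to 1 once the clock index entered the fit, and ran from 1 to 3 when 1 mouse was left out. For diet in conventional mice it ran from 0 to 1, and for germ-free against conventional mice on lard from 0 to 1, when 1 mouse was left out. It did not move for germ-free against conventional mice on fish oil (1) or over both diets (1), or for the difference between the diet effects (0). The 21 results for genes of the other lists gave 768 values, of which 68 lost a call. The 4 dim genes and Cyp2s1 were not tested under the filter on level, which kept genes above the median signal. Counts over all genes moved more: 161 called for diet in conventional mice (0 with only the 2 groups compared, 743 without fish oil conventional mouse 4), 2625 in germ-free mice (1432 to 3914), 363 for germ-free against conventional on lard (163 to 1084) and 1377 on fish oil (581 to 2075), 121 for the difference between diet effects (24 to 457) and 1563 over both diets (1225 to 2527). Scaling the arrays to equal medians moved the split of all genes called: 1703 of 2827 were higher on fish oil in germ-free mice, against 913 of 2625 without it, and 1326 of 1782 were higher in germ-free mice on fish oil, against 601 of 1377. The causes were not tested. The labels number the mice in each group, but same-numbered mice showed little shared deviation. Over 36 such pairs r ran from -0.41 to 0.23 with a median of 0.05, beside a median of 0 for pairs of other numbers. Of 24 arrays, 1 matched its own number best. No pairing by number was detected, and this check cannot exclude a weak one. With the replicate block over 24 arrays, 2 of the 8 genes were called for diet in germ-free mice, 0 for diet in conventional mice, 1 for germ-free against conventional mice on fish oil, on lard and over both diets, and 0 for the difference between the diet effects. The 24 arrays without the block gave the same counts of the 8 genes. Over all genes the block gave 3124 calls for diet in germ-free mice, against 3117 for the same 24 arrays without it. For diet in conventional mice it gave 304 against 226, and for the difference between diet effects 190 against 209. For germ-free against conventional mice it gave 2061 against 2001 on fish oil, 355 against 400 on lard and 1974 against 1930 over both diets.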
